A study of Homo sapiens with 9 samples.

Results

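The FAT, Dachsous and CELSR genes encode giant cadherins, cell surface proteins whose outer parts are long chains of cadherin repeats. Members were taken by gene symbol: FAT1, FAT2, FAT3, FAT4, DCHS1, DCHS2, CELSR1, CELSR2, CELSR3 and FJX1, which encodes a kinase that acts on such repeats. Of these 10 named genes, 9 were measured among 21003 genes in the count table, and FAT2 was not analysed here. The family was selected on the difference of FAT3 between knockout and wild-type libraries, which was among the largest rises. Values of that contrast are therefore given as a description without a test, and nothing is read from how many members changed in it.

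RNA was sequenced from HAP1, an adherent near-haploid line derived from KBM-7 chronic myeloid leukaemia cells, all grown in the same untreated culture conditions. Wild-type (WT) cells comprised clone 1 (n = 3 libraries) and clone 7 (n = 2), bought as separate batches of the parental control. The MATR3 knockout (KO) cells comprised clone 1 (n = 2) and clone 5 (n = 2) from the same supplier, so each genotype rests on 2 clones. MATR3 encodes matrin 3, a nuclear RNA- and DNA-binding protein. The labels do not state whether replicates were separate cultures. In contrasts of clones, p-values reflect only library-to-library spread within clones, possibly technical. In KO against WT that spread also includes differences between clones of a genotype, but libraries and not clones are counted as the units.

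In Drosophila, Fat and Dachsous bind each other across cell borders, and the Golgi kinase Four-jointed, the homolog of FJX1, tunes that binding by phosphorylating their cadherin repeats. The pair orients cells within a sheet and feeds into the Hippo kinase cascade, which restrains the coactivator Yorkie, called YAP and TAZ in mammals. In mammals FAT4 and DCHS1 form the corresponding receptor and ligand pair, FAT1 acts on actin through Ena/VASP proteins, and mouse Fat3 shapes the dendrites of retinal amacrine cells. The CELSR proteins, homologs of Drosophila Flamingo, are adhesion receptors with several membrane passes that work with Frizzled and Van Gogh proteins in planar cell polarity.

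The shallowest library held 16103754 counts and the deepest 34407309. For MATR3 the WT libraries (n = 5) averaged 219 ± 5.83 CPM (counts per 1000000 after TMM scaling, mean ± SD) and the KO libraries (n = 4) 44.4 ± 3.58 CPM, a 4.92-fold fall by edgeR (log2 -2.30, SE 0.065, adjusted p = 2.0e-09). WT clone 1 replicate 1 stood apart, with 14.03% of its counts in repeats against 7.90 to 11.2% in the other libraries. Of 16 haematopoietic markers, 5 had counts, and they summed to 63.2 to 67.2 CPM in the WT libraries against 53.0 to 58.1 CPM in KO. Of the 4 tested, 0 were higher and 2 lower in KO by edgeR, beside 11.3% and 11.9% of all tested genes. KIT fell from 8.48 ± 0.470 to 1.15 ± 0.519 CPM (log2 -2.92, SE 0.24) and RUNX1 from 16.4 ± 3.90 to 9.84 ± 0.925 CPM (-0.73, SE 0.15). TAL1, the most abundant, was at 38.6 ± 4.20 and 43.2 ± 3.50 CPM and did not pass. These markers were named after their values were seen. The white-cell and stem-cell markers PTPRC and CD34 were not analysed here. In RNA from bulk cells, fewer cells that express a gene and less RNA of it per cell cannot be told apart.

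Promoters of members that moved with MATR3 loss are shown for reference, 3 of them lower in KO cells and 1 higher. Each run is the 250 bases before the RefSeq start (GRCh38.p14), 5′ to 3′ on the gene's own strand, with matches to the GC box GGGCGG or its reverse complement in capitals. The stretches are FAT1 at chr4:186726697-186726946 (minus strand), DCHS2 at chr4:154491800-154492049 (minus), FJX1 at chr11:35618210-35618459 (plus) and CELSR3 at chr3:48662887-48663136 (minus).
FAT1: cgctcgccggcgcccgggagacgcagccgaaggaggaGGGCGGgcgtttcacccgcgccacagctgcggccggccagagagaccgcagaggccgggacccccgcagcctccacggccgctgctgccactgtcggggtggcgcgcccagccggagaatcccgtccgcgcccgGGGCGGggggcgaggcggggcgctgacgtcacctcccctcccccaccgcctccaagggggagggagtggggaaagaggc
DCHS2: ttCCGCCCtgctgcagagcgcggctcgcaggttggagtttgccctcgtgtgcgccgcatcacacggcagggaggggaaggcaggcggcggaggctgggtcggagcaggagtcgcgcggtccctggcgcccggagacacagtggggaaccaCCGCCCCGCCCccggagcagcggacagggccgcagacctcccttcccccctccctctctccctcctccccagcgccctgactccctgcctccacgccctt
FJX1: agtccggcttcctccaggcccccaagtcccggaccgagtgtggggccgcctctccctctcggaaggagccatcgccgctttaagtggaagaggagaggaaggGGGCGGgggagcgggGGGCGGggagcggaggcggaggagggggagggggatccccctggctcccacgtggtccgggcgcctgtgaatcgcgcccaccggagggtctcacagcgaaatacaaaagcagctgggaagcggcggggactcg
CELSR3: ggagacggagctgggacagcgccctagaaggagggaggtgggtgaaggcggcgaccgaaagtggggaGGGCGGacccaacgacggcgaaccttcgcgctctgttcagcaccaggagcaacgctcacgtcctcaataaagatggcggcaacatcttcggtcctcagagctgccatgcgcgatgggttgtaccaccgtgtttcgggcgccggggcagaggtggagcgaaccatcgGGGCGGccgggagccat
No promoter is shown for FAT3, FAT4, DCHS1 and CELSR1. Of the 10 named genes 6 matched the table. FAT1 has a second entry there, not printed, at chr4:186723857-186724106 (minus strand), with 32 CpG sites and 3 GC boxes.

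These windows are rich in CpG, with 32 sites in FAT1, 23 in DCHS2, 22 in FJX1 and 25 in CELSR3, against a median of 11 over the 35116 promoters of the RefSeq table. The GC box occurred 2 times in FAT1, 3 times in DCHS2, 2 times in FJX1 and 2 times in CELSR3, and 42.6% of all promoters held at least 1 in the same window. The letters GGAATG, bound by the TEAD partners of YAP, occurred in none of these 4 windows on either strand, and in 11.9% of all promoters. The TATA box letters TATAAA occurred in none of the 4 either, and in 10.7% of all promoters. CELSR2, which did not move with MATR3 loss and is not printed, held 23 CpG sites, 1 GC box and 0 matches to GGAATG or TATAAA. The window of FAT2, which was not analysed here, held 4 CpG sites and 0 matches to any of the 3 motifs. A match describes the letters and is not a site shown to be used.

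Across the family, FAT3 and CELSR3 were higher in every KO than in every WT library, and FAT1, FAT4, DCHS2 and FJX1 were lower in every KO library. The libraries of CELSR1, CELSR2 and DCHS1 overlapped. KO and WT libraries thus did not overlap for 6 of the 9, beside 23.4% of tested genes, a count from which nothing is read. The median log2 difference was -0.40 over the 9 members and -0.0016 over all tested genes. All 9 passed the low-count filter, but FAT3 passed only through its KO libraries, so a difference in it was built into its passing.

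**Figure D1:**
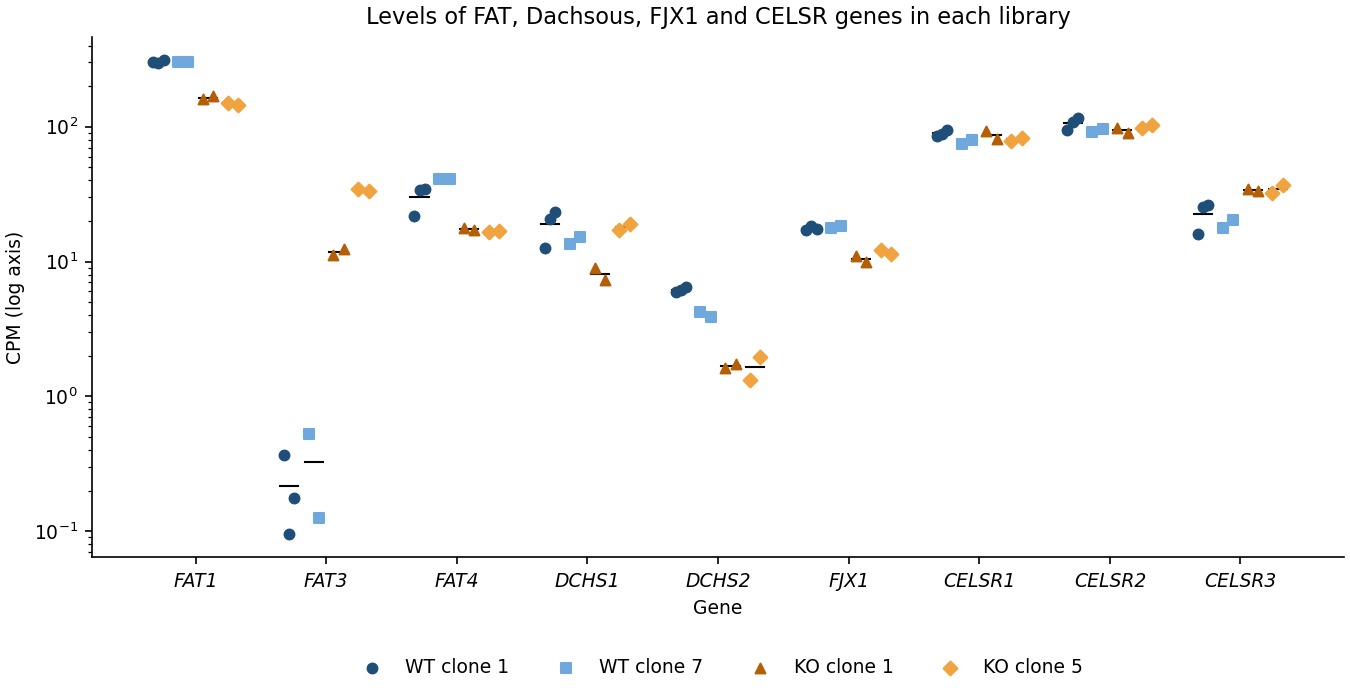
Level of each gene in CPM (log axis) in each of the 9 libraries, coloured by clone, with a black bar at the clone mean. FAT3 lies below 0.6 CPM in every WT library and above 11 CPM in every KO library, FAT1, FAT4, DCHS2 and FJX1 lie lower in KO, and CELSR1 and CELSR2 overlap.

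Among the FAT receptors, FAT3 (ENSG00000165323) showed the widest difference. Its gene spans 671656 bases at chr11:92224818-92896473 on the plus strand (hg38, GENCODE release 44). In WT clone 1 it was at 0.370, 0.0957 and 0.177 CPM, and in WT clone 7 at 0.529 and 0.124 CPM. In KO clone 1 it was at 11.1 and 12.4 CPM, and in KO clone 5 at 34.3 and 33.6 CPM. FAT3 was thus near the detection limit in all WT libraries, which held 2 to 16 counts, and clearly present in all KO libraries, which held 192 to 724 counts. The log2 difference was 6.37 (SE 0.50), 5.40 (SE 0.25) for KO clone 1 and 6.92 (SE 0.23) for KO clone 5 against WT. In the authors' deposited table it was 6.43 with a standard error of 0.62.

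The 2 KO clones differed from each other in FAT3, a contrast that did not serve to choose the family. KO clone 5 held 34.0 ± 0.483 CPM (n = 2) and KO clone 1 held 11.8 ± 0.868 CPM (n = 2), a 2.88-fold difference (log2 1.53, SE 0.21, edgeR adjusted p = 0.0101 over all genes and repeats). Both KO clone 5 libraries lay above both KO clone 1 libraries. FAT3 was the 1 member called between the KO clones, where 0.692% of tested genes passed and 0.467% were higher in KO clone 5. The call was lost when any 1 of the 4 KO libraries was left out, which leaves a clone with 1 library whose spread is taken from the others (edgeR adjusted p = 0.107 to 0.184, log2 1.46 to 1.61). The level order was KO clone 5, KO clone 1, then the WT clones, which did not differ beyond their spread (0.326 ± 0.286 CPM in clone 7 and 0.214 ± 0.141 CPM in clone 1).

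FAT1 (ENSG00000083857, chr4:186587794-186726722, minus strand), the receptor tied to actin regulation, was the most abundant member. WT clone 1 held 303, 298 and 310 CPM, and WT clone 7 held 303 and 300 CPM. KO clone 1 held 160 and 168 CPM and KO clone 5 held 150 and 146 CPM. The WT libraries were tightly grouped, and every KO library lay far below them, 1.94-fold on average (log2 -0.96, SE 0.06). The values were -0.88 (SE 0.06) in KO clone 1 and -1.04 (SE 0.06) in KO clone 5. Between the KO clones FAT1 differed by -0.16 (SE 0.07, edgeR adjusted p = 0.530), which did not pass, and between the WT clones by -0.01 (SE 0.06, edgeR adjusted p = 0.944).

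FAT4 (ENSG00000196159, chr4:125314918-125492932, plus strand) is the receptor for DCHS1. It was at 21.8, 34.0 and 34.4 CPM in WT clone 1 and at 41.3 and 41.0 CPM in WT clone 7. In KO clone 1 it was at 17.8 and 17.2 CPM, and in KO clone 5 at 16.5 and 17.0 CPM. All KO libraries lay below all WT libraries, the nearest being WT clone 1 replicate 1 (log2 -1.01, SE 0.15). The KO value was -1.27 with WT clone 1 left out and -0.82 with WT clone 7 left out. WT clone 7 was above WT clone 1 by 0.44 (SE 0.16, edgeR adjusted p = 0.157), which did not pass. With replicate number as a block it did (0.57, SE 0.15, edgeR adjusted p = 0.0483), as it did without WT clone 1 replicate 1 (0.27, SE 0.07, edgeR adjusted p = 0.0467). KO clone 5 and KO clone 1 differed by -0.06 (SE 0.18, edgeR adjusted p = 0.961).

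Per kb of annotated exon, where levels of different genes can be set side by side, FAT1 made up 92.0 ± 1.72% of FAT RNA in WT (n = 5) and 83.1 ± 5.40% in KO libraries (n = 4). FAT3 made up 0.0647 ± 0.0459% in WT libraries, 5.16 ± 0.216% in KO clone 1 and 14.9 ± 0.0217% in KO clone 5. FAT4 made up 7.94 ± 1.72% in WT and 6.93 ± 0.341% in KO libraries. The sum over FAT1, FAT3 and FAT4 was 19.8 to 20.8 CPM per kb in WT and 11.3 to 11.9 CPM per kb in KO libraries, and FAT3 RNA per kb in KO libraries was small beside the fall in FAT1. Exon lengths are unions over all annotated transcripts, and the transcripts in use were not determined.

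**Figure D2:**
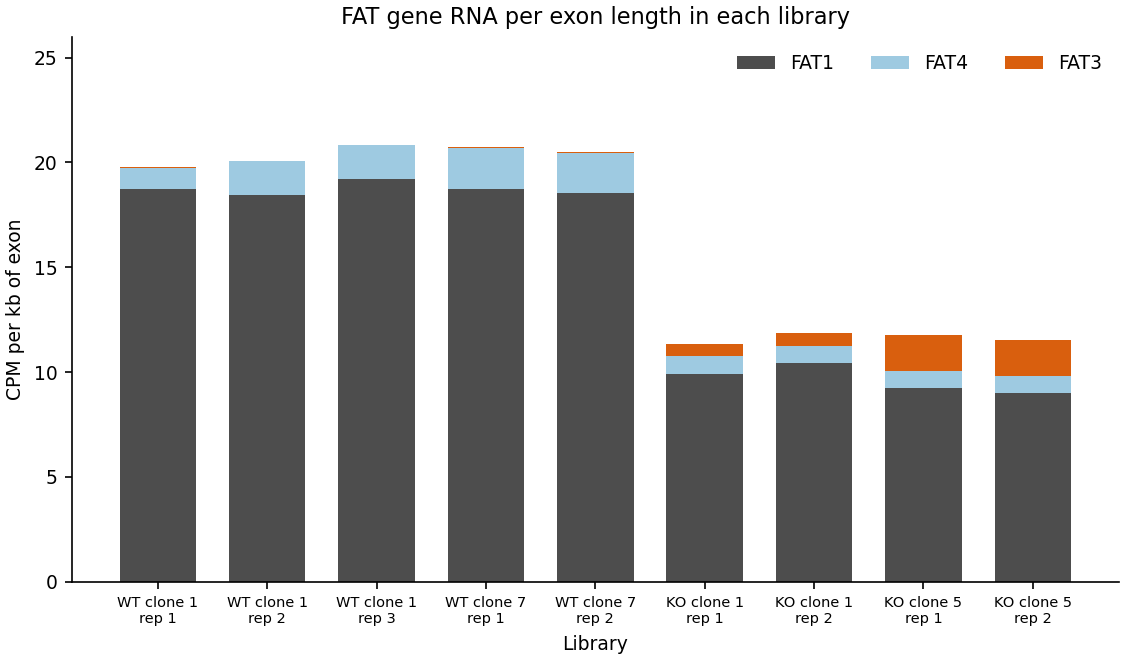
Stacked CPM per kb of exon for FAT1, FAT4 and FAT3 in each of the 9 libraries. The stacks reach 19.8 to 20.8 in WT and 11.3 to 11.9 in KO libraries, and the FAT3 part is visible in KO, largest in KO clone 5.

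Of the Dachsous ligands, DCHS2 was lower in both KO clones and DCHS1 in 1 of them. DCHS2 (ENSG00000197410, chr4:154231742-154491799, minus strand) was at 5.98, 6.12 and 6.44 CPM in WT clone 1 and at 4.20 and 3.91 CPM in WT clone 7. It was at 1.63 and 1.73 CPM in KO clone 1 and at 1.33 and 1.96 CPM in KO clone 5. The 3 levels did not overlap, with WT clone 1 highest, WT clone 7 next and both KO clones together at the bottom (KO against WT log2 -1.68, SE 0.20). The KO clones differed by -0.05 (SE 0.22, edgeR adjusted p = 0.978). The step between the WT clones was -0.61 (SE 0.17, edgeR adjusted p = 0.0974) and did not pass. KO libraries held 28 to 60 DCHS2 counts, so a small difference between KO clones was not detectable at this depth.

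DCHS1 (ENSG00000166341, chr11:6621330-6655809, minus strand), the ligand of FAT4, was at 12.5, 20.7 and 23.3 CPM in WT clone 1 and at 13.5 and 15.1 CPM in WT clone 7. KO clone 1 held 8.88 and 7.27 CPM, and KO clone 5 held 17.2 and 19.0 CPM. KO clone 1 thus lay below every other library, whereas KO clone 5 lay inside the WT range. Against WT the values were -1.04 (SE 0.21) for KO clone 1 and 0.14 (SE 0.20) for KO clone 5, and the pooled value was -0.40 (SE 0.28). KO clone 5 was 2.26-fold above KO clone 1 (log2 1.18, SE 0.24, edgeR adjusted p = 0.0772), which did not pass. With replicate number as a block it did (1.19, SE 0.19, edgeR adjusted p = 0.0117), and so it did with DESeq2 (adjusted p = 0.00011) and without WT clone 1 replicate 1 (edgeR adjusted p = 0.00058). Over all alternatives its adjusted p ran from 0.00011 to 0.685.

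**Figure D3:**
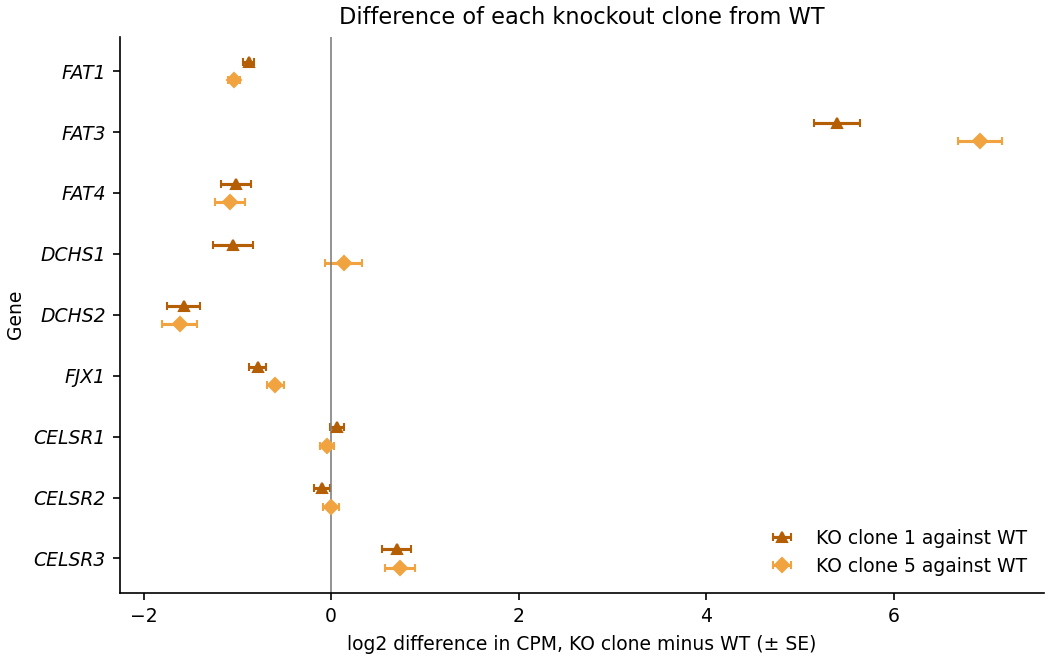
Log2 difference in CPM (± SE) of KO clone 1 (triangles) and KO clone 5 (diamonds) from the mean of both WT clones, for each gene. FAT3 stands at 5.40 and 6.92, and DCHS1 is the gene whose clones fall apart around 0, at -1.04 and 0.14.

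FJX1 (ENSG00000179431), the kinase gene, is a single exon of 2406 bases at chr11:35618460-35620865 on the plus strand. It was at 17.0, 18.3 and 17.4 CPM in WT clone 1 and at 17.7 and 18.3 CPM in WT clone 7. KO clone 1 held 10.9 and 9.87 CPM and KO clone 5 held 12.1 and 11.5 CPM. Both WT clones were level and both KO clones were lower, with no overlap (1.61-fold, log2 -0.68, SE 0.08). The KO clones differed by 0.19 (SE 0.11, edgeR adjusted p = 0.651) and the WT clones by 0.03 (SE 0.09, edgeR adjusted p = 0.882).

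The CELSR receptors of planar cell polarity split. CELSR3 (ENSG00000008300, chr3:48636463-48662886, minus strand), which guides axon tracts in the mouse brain, was at 15.98, 25.5 and 26.2 CPM in WT clone 1 and at 17.7 and 20.2 CPM in WT clone 7. It was at 34.3 and 33.2 CPM in KO clone 1 and at 32.2 and 36.9 CPM in KO clone 5. Every KO library lay above every WT library (log2 0.69, SE 0.13), by 0.70 (SE 0.16) in KO clone 1 and 0.73 (SE 0.16) in KO clone 5. The KO clones differed by 0.03 (SE 0.19, edgeR adjusted p = 0.981). The WT clones differed by -0.27 (SE 0.18, edgeR adjusted p = 0.444), and without WT clone 1 replicate 1 by -0.46 (SE 0.09, edgeR adjusted p = 0.0214).

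CELSR1 (ENSG00000075275, chr22:46360834-46537620, minus strand), which is required for neural tube closure in mice, ranged from 75.0 to 95.2 CPM in the WT libraries and from 78.8 to 92.8 CPM in KO. CELSR2 (ENSG00000143126, chr1:109249539-109275751, plus strand), which acts with CELSR3 in ependymal cilia of mice, ranged from 92.2 to 116 CPM in the WT libraries and from 90.5 to 103 CPM in KO. For both genes the ranges overlapped, with log2 differences of -0.01 (SE 0.08) and -0.07 (SE 0.08). Neither passed between the KO clones, at -0.11 (SE 0.09, edgeR adjusted p = 0.789) for CELSR1 and 0.09 (SE 0.10, edgeR adjusted p = 0.854) for CELSR2. Summed per kb, CELSR RNA was 14.7 ± 1.56 CPM per kb in WT and 15.3 ± 0.677 CPM per kb in KO libraries.

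Per kb of exon the WT order was FAT1 (18.7 ± 0.291 CPM per kb), CELSR2 (7.91 ± 0.808), FJX1 (7.38 ± 0.235), CELSR1 (5.27 ± 0.486), FAT4 (1.62 ± 0.372), DCHS1 (1.58 ± 0.437), CELSR3 (1.52 ± 0.330), DCHS2 (0.320 ± 0.0709) and FAT3 (0.0132 ± 0.00941). CELSR2 and FJX1 did not differ beyond their spread, nor did FAT4, DCHS1 and CELSR3. In KO libraries FAT1 remained the highest at 9.65 ± 0.642 CPM per kb and DCHS2 was the lowest at 0.0998 ± 0.0158. The lower part of the order differed between the KO clones. In KO clone 1 (n = 2) FAT4 stood at 0.823 ± 0.0220 CPM per kb, DCHS1 at 0.749 ± 0.106 and FAT3 at 0.599 ± 0.0442. In KO clone 5 (n = 2) FAT3 stood at 1.73 ± 0.0246 CPM per kb, DCHS1 at 1.68 ± 0.119 and FAT4 at 0.787 ± 0.0153. FAT3 was thus below FAT4 in both libraries of KO clone 1 and above it in both of KO clone 5.

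Between WT clone 7 and WT clone 1, 0 of 9 members passed by edgeR or by DESeq2, beside 0.613% of tested genes by edgeR (0.163% higher and 0.45% lower in clone 7), and 3 had an unadjusted edgeR p below 0.05 (FAT4, DCHS2 and CELSR1). Without WT clone 1 replicate 1, 3 members passed between the WT clones, namely CELSR3, DCHS1 and FAT4, while the genes called in all went from 109 to 764. In that library DCHS1, FAT4 and CELSR3 were the lowest of the WT libraries, and it is the library with the raised repeat share, whose part in these values was not tested. Between the KO clones 3 members had an unadjusted p below 0.05, namely FAT3, DCHS1 and FAT1.

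Of 33 genes of the Hippo core, the kinases, scaffolds and effectors downstream of Fat, 5 rose and 8 fell in KO against WT by edgeR, with a median log2 difference of -0.02. Of all 17777 tested genes 23.2% passed in this contrast, 11.3% higher and 11.9% lower. The 4 pathway lists were chosen with earlier results of these data known, so their counts are given as a description. LATS1, a kinase that phosphorylates YAP, rose from 52.5 ± 4.49 to 97.6 ± 10.02 CPM (edgeR log2 0.89, SE 0.08, adjusted p = 8.9e-06). FRMD6, an upstream scaffold, rose from 10.8 ± 0.930 to 18.8 ± 1.89 CPM (0.80, SE 0.09), and WWTR1, which encodes TAZ, from 61.7 ± 6.10 to 93.4 ± 6.14 CPM (0.60, SE 0.08). PTPN14, a phosphatase that holds YAP in the cytoplasm, fell from 91.3 ± 8.53 to 64.1 ± 4.08 CPM (-0.51, SE 0.07). LATS1 lies on chromosome 6 in a stretch where 41 of the 52 other tested genes within 5 Mb also rose and 2 fell (median 0.85). With the libraries of each clone summed, 5 of the list passed.

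Of 19 tested YAP and TAZ target genes, 9 fell, 0 rose and 10 did not pass by edgeR, beside 11.9% of all tested genes that fell (median -0.39, beside -0.0016 over all genes). Among those that did not pass, AXL was at 0.26 and ARHGEF17 at 0.11, named after their values were seen. Without FJX1, which is itself a target on this list, 8 of 18 fell. Since the list was chosen with earlier results known, nothing is read from these counts. PTPN14, already counted as a fall in the Hippo core, is also among the 9. LATS2 and AMOTL2, which did not pass, are on both lists as well. MYOF, a membrane repair protein gene, fell from 15.04 ± 6.94 to 2.14 ± 0.107 CPM (edgeR log2 -2.80, SE 0.29, adjusted p = 2.7e-05). RBMS3, an RNA-binding protein gene, fell from a range of 3.70 to 5.49 CPM to one of 1.09 to 1.70 CPM (-1.73, SE 0.18), F3, the coagulation tissue factor, from 9.96 ± 0.872 to 4.17 ± 0.757 CPM (-1.25, SE 0.13), and CCDC80, a secreted matrix protein gene, from 9.37 ± 1.94 to 3.20 ± 0.410 CPM (-1.55, SE 0.17). CYR61, a common readout of YAP, averaged 51.5 ± 17.6 CPM in WT libraries against 44.6 ± 11.4 CPM without MATR3 (edgeR log2 -0.21, SE 0.25, adjusted p = 0.608) and was chosen after its values were seen, as was CTGF (-0.53, SE 0.17, edgeR adjusted p = 0.0461). ANKRD1, IGFBP3 and NT5E were not analysed here.

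Planar cell polarity genes, the partners of CELSR receptors, gave 7 rises and 4 falls among 32 tested, beside 11.3% and 11.9% of all tested genes (median 0.05). WNT5A, a ligand that directs polarity, rose from 15.1 ± 1.84 to 32.6 ± 1.73 CPM (edgeR log2 1.10, SE 0.09, adjusted p = 3.6e-06). PRICKLE1, a core cytoplasmic component, rose from 29.9 ± 3.77 to 47.4 ± 2.80 CPM (0.67, SE 0.09) and FUZ, an effector needed for cilia, from 5.12 ± 1.42 to 9.83 ± 0.856 CPM (0.92, SE 0.17). FZD1, a Frizzled receptor, fell from 23.5 ± 1.80 to 14.7 ± 0.865 CPM (-0.68, SE 0.08). The Van Gogh genes did not pass, with VANGL1 at 28.7 ± 1.26 and 28.2 ± 0.925 CPM and VANGL2 at 46.5 ± 4.92 and 43.0 ± 3.92 CPM in WT and KO libraries, named after their values were seen. Between the KO clones 1 gene of this list passed, the receptor gene ROR2 (0.60, edgeR adjusted p = 0.0316), also named after its value was seen. ROR2 also passed between the WT clones, lower in clone 7 (-0.50, edgeR adjusted p = 0.0497).

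Among 26 tested binding partners and cytoplasmic effectors of FAT and Dachsous proteins, 3 rose and 1 fell, again beside 11.3% and 11.9% of all tested genes (median 0.0043). FBXL7, whose Drosophila homolog acts downstream of Fat, fell from 20.8 ± 1.89 to 4.17 ± 0.287 CPM (edgeR log2 -2.31, SE 0.10, adjusted p = 3.6e-08). WASF1, a subunit of the actin-nucleating WAVE complex that mouse Fat3 binds, rose from 56.8 ± 7.24 to 108 ± 6.95 CPM (0.92, SE 0.09), but 43 of the 52 other tested genes within 5 Mb of it on chromosome 6 also rose and 0 fell (median 0.86). The polarity scaffold genes PATJ and MPDZ rose by 0.51 (SE 0.07) and 0.32 (SE 0.07). The Ena/VASP genes ENAH, VASP and EVL did not pass, with ENAH averaging 325 ± 20.3 CPM in WT libraries against 313 ± 16.1 CPM in KO, named after its values were seen.

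**Figure D4:**
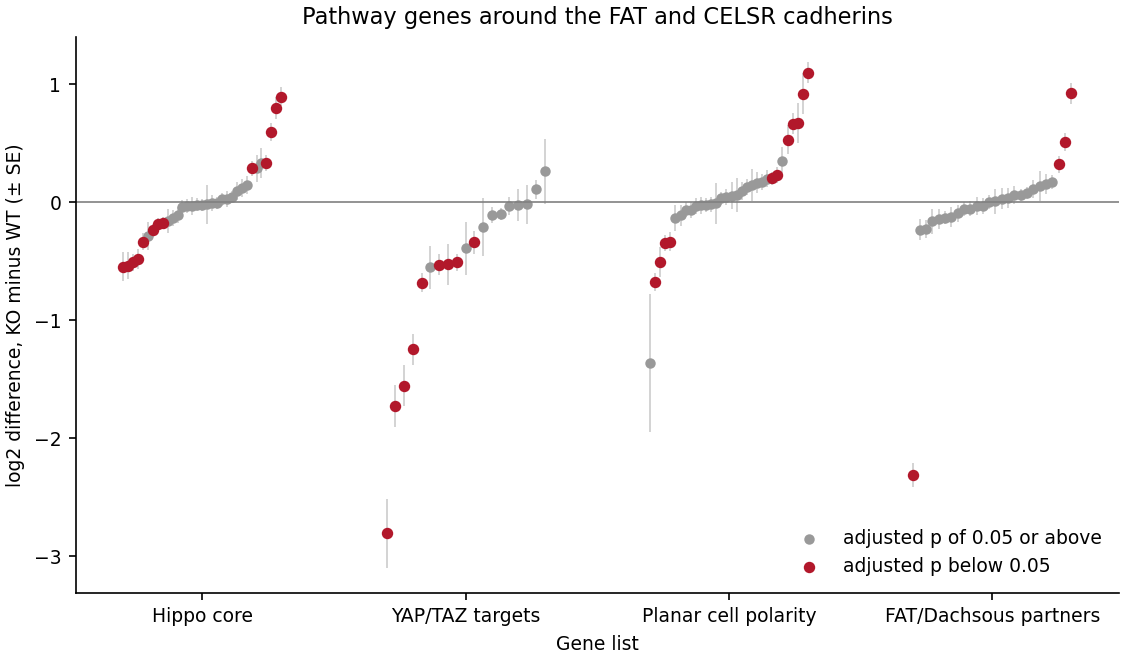
Log2 difference between KO and WT (± SE) for each tested gene of the 4 lists, ordered by value within a list, with genes that passed edgeR in red. YAP and TAZ targets extend downward to -2.80 with 0 rises called, and the other lists hold calls in both directions.

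The 10 genes whose log2 CPM over the 9 libraries was most like that of FAT3 were TMEM62, HINT3, NUP43, HBS1L, RPS12, GOPC, LATS1, CDC40, ADAT2 and HOTAIR, with Pearson r of 0.986 to 0.991 among 15365 genes with a mean of at least 1 CPM. Of these, 8 lie on chromosome 6, from CDC40 (start 110180141) to NUP43 (end 149749665). Within 5 Mb of LATS1, 41 of the 52 other tested genes rose and 2 fell (median 0.85). Within 5 Mb of WASF1, close to CDC40, 43 of 52 rose and 0 fell (median 0.86). The libraries fall into KO and WT groups, so r mostly reflects that all 10 genes are high in KO libraries, and it is given as a description. Their sizes were far below that of FAT3, from 0.41 (TMEM62) to 1.34 (HINT3) on the log2 scale, apart from the antisense RNA HOTAIR at 3.58. None of the 10 passed between the KO clones by edgeR, with adjusted p from 0.427 to 0.952. With Spearman correlation in place of Pearson, 6 of the 10 were named again.

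**Figure D5:**
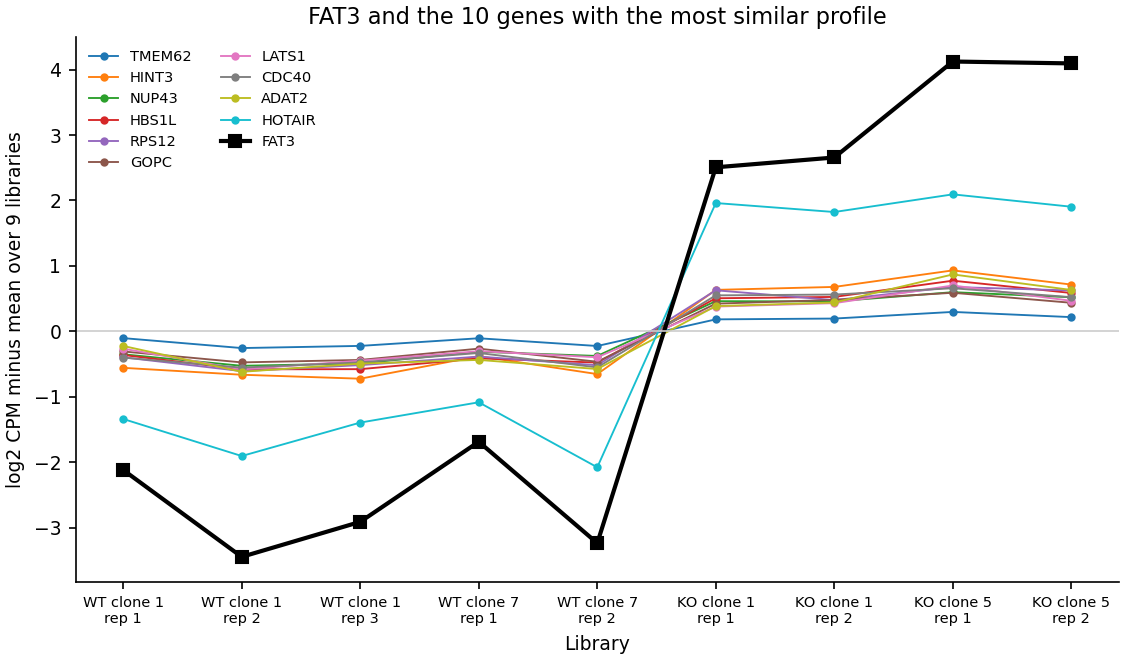
Log2 CPM of FAT3 (black squares) and the 10 genes most like it, each centred on its mean over the 9 libraries. All lie above their mean in the 4 KO libraries, FAT3 by the widest margin and with a further step between KO clone 1 and KO clone 5.

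Neither neighbour of FAT3 passed between genotypes. CHORDC1, the nearest tested protein-coding gene on the lower side, encodes a chaperone-binding protein and ends 2001741 bases away. Its WT libraries averaged 99.1 ± 11.96 CPM and its KO libraries 88.6 ± 5.32 CPM (edgeR log2 -0.16, SE 0.09, adjusted p = 0.223). SLC36A4, an amino acid transporter gene 247701 bases away on the upper side, was at 17.0 ± 1.81 and 15.2 ± 2.60 CPM (-0.17, SE 0.12, edgeR adjusted p = 0.358). Genes annotated as overlapping FAT1, FAT3, FAT4, DCHS1, DCHS2, CELSR1 or CELSR3 had no row of their own in the counts, and since the strand setting of the counting is not given, reads from antisense partners such as DCHS1-AS1 cannot be told apart from the member.

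Markers of neurons and epithelia were measured beside these values because FAT3 and CELSR3 are known from neurons. Each count of marker genes given here stands beside 11.3% of all tested genes higher and 11.9% lower in KO by edgeR. Of 14 neuronal markers 8 had counts and 7 were tested, with 3 higher and 1 lower. NEFL, a neurofilament gene, rose from 0.769 ± 0.256 to 29.6 ± 14.3 CPM (5.24, SE 0.37). The other rises ended at 2.63 ± 0.354 CPM (SYT1) and 0.786 ± 0.134 CPM (NEFM) in KO libraries. GAP43 was the lower one, falling from 0.964 ± 0.184 to 0.0281 ± 0.0324 CPM (-4.68, SE 0.47). TUBB3, a neuronal tubulin gene and the most abundant, was at 73.2 ± 8.34 and 61.1 ± 8.82 CPM and did not pass. Between the KO clones NEFL was lower in clone 5 (-1.27, edgeR adjusted p = 0.0014) and MAP2, a dendritic microtubule protein gene, was higher (2.07, edgeR adjusted p = 0.0166). These neuronal genes were named after their values were seen. Summed over the 8 neuronal markers with counts, levels reached 87.4 to 103 CPM in the WT libraries against 91.2 to 134 CPM in KO. SNAP25, STMN2, RBFOX3, ELAVL3, ELAVL4 and DCX were not analysed here. Of 13 epithelial markers 10 had counts and 8 were tested, with 3 higher and 0 lower, and they summed to 66.2 to 90.1 CPM in the WT libraries against 137 to 155 CPM in KO. The keratin genes KRT8 (11.2 ± 3.36 to 64.8 ± 5.31 CPM) and KRT18 (43.0 ± 8.89 to 59.1 ± 5.83 CPM) made up most of this sum. CDH1 rose from 0.0593 ± 0.0691 to 1.24 ± 0.494 CPM. The other 5 did not pass, with OCLN at -0.42, ESRP1 at -0.29, ESRP2 at -0.13, CLDN7 at 0.06 and CLDN3 at 0.57. These genes were named after their values were seen. Of 10 fibroblast markers 5 had counts and 4 were tested, with 1 higher and 2 lower, at a sum of 72.5 to 98.3 CPM in the WT libraries against 57.3 to 82.9 CPM in KO. The part of these shifts in the values of the cadherins was not tested.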

How the data were processed

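Total RNA of 9 libraries was depleted of ribosomal RNA and made into directional libraries, as the labels' protocols state. The tools named are STAR 2.5.2a, DESeq and DESeq2 1.22.2 with hg38, per the submitters' processing notes. Strand setting and annotation: not given in the sources used here. The deposited values are raw counts for genes and repeat subfamilies and, per the file headers, a normalized signal that the authors made by dividing counts by a size factor per library. The authors' deposited comparison holds baseMean as signal, log2 fold changes, a Wald score and p-values.

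Raw counts were tested with edgeR 4.0.16 (R 4.3.3; filterByExpr with a minimum count of 10, TMM, quasi-likelihood F test). This kept 17777 genes and 1052 repeats. KO against WT used a genotype term, and contrasts of clones used a fit with 4 groups. Benjamini-Hochberg adjustment ran over every tested gene and repeat, with calls below 0.05. SE is that of the edgeR log2 difference. The method was tested on simulated counts with planted changes and otherwise no clone or shared replicate effects. False calls that arise from such effects were therefore not tested. Positions and exon lengths came from GENCODE release 44.

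Members and gene lists were chosen with earlier results of these data known. Named genes were the members, MATR3, the 4 genes of each list with the smallest p, the 10 genes most like FAT3 (log2 CPM with a prior count of 2) and the neighbours of FAT3. Libraries with the same replicate number deviated together (12 correlations of 0.121 to 0.517, mirrored within clones of 2 libraries), so replicate number was added as a block in an alternative fit. There WT clone 1 replicate 3, the only library with its number, does not inform the contrasts. Other alternatives were DESeq2 1.42.0 and its size factors, other filters, genes only, robust dispersion, summed clones and left-out libraries or clones.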

Additional observations from a re-analysis of the deposited data

Results flagged for a closer look

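FAT3 differed between the knockout clones, whose effects against the same WT libraries can be compared directly. KO clone 5 exceeded KO clone 1 by 1.53 on the log2 scale (SE 0.21, edgeR adjusted p = 0.0101), with both KO clone 5 libraries (34.3 and 33.6 CPM) above both KO clone 1 libraries (11.1 and 12.4 CPM). The difference stayed between 1.46 and 1.61 in 16 alternatives, and the call was lost in 4 of them, each without 1 KO library.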

How the results depend on the processing

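All 21 alternatives kept the MATR3 fall, from -2.36 to -2.24. Genes called in KO against WT, 4123, became 1639 with clones summed, 2338 without KO clone 1 and 2614 without KO clone 5, and ran from 3206 to 4114 with 1 library left out. Between KO clones 123 genes passed, and 18 to 424 with 1 library left out (18 to 38 without 1 KO library, 79 without WT clone 7 replicate 2, 424 without WT clone 1 replicate 1). Between WT clones 109 passed, 466 with DESeq2, 199 with the strict filter, 431 with the replicate block and 0 to 764 with 1 library left out (764 without WT clone 1 replicate 1, 3 without WT clone 1 replicate 3, 0 without either WT clone 7 library or any 1 KO library), so calls between clones depend on single libraries. Members called between KO clones numbered 1, but 2 with DESeq2, 2 with the replicate block and 0 to 2 with 1 library left out, and between WT clones 0, but 1 with the replicate block and 0 to 3 with 1 library left out. The replicate block changed the calls of FAT4 between WT clones and DCHS1 between KO clones and of no other member in these contrasts. Hippo core calls, 13, became 5 with clones summed and 7 without KO clone 1. Planar cell polarity calls, 11, became 6 with clones summed, 7 without KO clone 1 and 5 without KO clone 5. YAP and TAZ target calls, 9, stayed at 7 to 12, and FAT and Dachsous partner calls, 4, at 3 to 6.

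FAT1, FAT3, FAT4, DCHS2, FJX1 and CELSR3 kept their sign in KO against WT under all 21 alternatives. FAT3 in that contrast was 5.43 with KO clone 5 left out, and DCHS1 was -1.09 without KO clone 5 and 0.08 without KO clone 1. Some uncalled differences changed sign when 1 library was left out. Between KO clones these were CELSR3 (-0.067 to 0.13) and DCHS2 (-0.35 to 0.21), and in KO against WT CELSR1 (-0.061 to 0.036). Between WT clones they were FAT1 (-0.027 to 0.0032, and 0.0041 with the replicate block) and FAT3 (-0.65 to 1.39, main value 0.92). The cause was not tested. FAT3 in WT cells rests on 2 to 16 counts a library, which limits the precision of its fold change.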

Other observations

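Genes beside the other members gave mixed values. Over the 18 nearest tested protein-coding neighbours of the 9 members, 3 rose and 4 fell in KO against WT by edgeR, and 11 did not pass, beside 23.2% of all tested genes that passed. Both neighbours of FJX1 on chromosome 11 fell with it. TRIM44, a ubiquitin-linked protein gene that starts 41910 bases away, averaged 46.6 ± 4.28 CPM in WT libraries against 23.5 ± 1.50 CPM in KO (edgeR log2 -0.98, SE 0.08, adjusted p = 3.3e-06). CD44, the hyaluronan receptor gene 386058 bases away on the other side, was at 8.63 ± 5.13 and 0.465 ± 0.239 CPM (-4.19, SE 0.46, edgeR adjusted p = 4.2e-05). Beside FAT4, which fell, ANKRD50, an endosomal recycling gene, rose from 69.95 ± 8.34 to 151 ± 13.8 CPM (edgeR log2 1.10, SE 0.09, adjusted p = 3.6e-06). INTU, the neighbour on the upper side of FAT4, fell with it (-0.34, SE 0.07, edgeR adjusted p = 0.0030). GRAMD4, beside CELSR1, rose (0.35, SE 0.08, edgeR adjusted p = 0.0089), whereas CELSR1 itself overlapped between genotypes. Beside FAT1, the nearer neighbour KLKB1, the plasma kallikrein gene 329323 bases away, rose by 0.75 (SE 0.20, edgeR adjusted p = 0.0199). On the other side, 1364550 bases away, TRIML2 fell by 1.02 (SE 0.24, edgeR adjusted p = 0.0102) and also differed between the KO clones (-1.17, edgeR adjusted p = 0.0205). These neighbours were named after their values were seen.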
